A study of Caenorhabditis elegans with 92 samples.

Results

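The 10 genes described here encode transcription factors that set tissue fate in Caenorhabditis elegans, and they were followed through the RNA-seq data of a study of condensin. They were chosen by name, not by their values, out of 20376 genes in the tables. They are the GATA factor genes elt-1 (W09C2.1), elt-2 (C33D3.1), elt-7 (C18G1.2), end-1 (F58E10.2) and end-3 (F58E10.5), the forkhead gene pha-4 (F38A6.1), the bHLH gene hlh-1 (B0304.1), the MADS box gene unc-120 (D1081.2), the zinc finger gene lin-26 (F18A1.2) and the nuclear receptor gene nhr-25 (F11C1.6). By the RefSeq annotation (WBcel235) end-1, end-3, elt-7 and pha-4 lie on chromosome V, elt-2 and nhr-25 on X, hlh-1 and lin-26 on II, elt-1 on IV and unc-120 on I. Values are FPKM, read fragments scaled to the length of the transcript and to the size of the library, so levels can be compared between genes per length. There were 5 libraries of mixed stage embryos of the wild-type strain N2, collected from gravid adults grown at 20°C, with no mutation or treatment. There were 6 libraries of larvae of the strain VC768, labelled L2-L3 in one field and L3 in the titles. This strain carries kle-2(ok1151), a deletion in the gene of the condensin II subunit KLE-2, over hT2[bli-4(e937) let-?(q782) qIs48], a balancer that joins chromosomes I and III and carries GFP. For each larval library about 500 animals were picked by hand, GFP-positive heterozygotes for 3 libraries and GFP-negative homozygotes for the other 3. The balancer is present in the heterozygotes alone, and the homozygotes came from heterozygous mothers, which supply KLE-2 to the egg. All libraries are of whole animals, and in such bulk samples fewer cells of a type and less RNA per cell cannot be told apart.

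The worm gut descends from a single embryonic blastomere. The maternal factor SKN-1 turns on the med genes, these and SKN-1 turn on the short-lived GATA factors END-1 and END-3, and the END factors turn on ELT-2 and ELT-7, which stay on in the intestine for life. PHA-4 specifies the pharynx, HLH-1 (the worm MyoD) and UNC-120 act together in body wall muscle, and ELT-1 specifies the epidermis, where LIN-26 maintains epithelial fate and NHR-25 takes part in epidermal differentiation and moulting.

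The samples were checked with kle-2 itself (C29E4.2). Its level was 7.83, 10.0 and 12.8 FPKM in heterozygous replicates 1 to 3 and 3.54, 4.24 and 6.59 FPKM in homozygous replicates 1 to 3, so every homozygous library lay below every heterozygous one (p = 0.1 in a two-sided exact permutation test, which with 3 against 3 cannot go lower). The tables hold no read totals. The FPKM values of low genes rise in whole steps, which gives the depth of a library relative to another, and relative to heterozygous replicate 2 the other libraries had between 0.504 (embryo replicate 2) and 1.24 (embryo replicate 5) times its depth. Homozygous replicate 1 was the shallowest larval library, at 0.509 times. Between 15670 and 17025 genes were above 0 in a library. The labels do not say whether the libraries of a group came from separate cultures, so p-values measure the spread between these libraries, which may be technical.

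In embryos pha-4 stood highest of the 10 genes and end-3 lowest. The order by median FPKM was pha-4 (144), lin-26 (105), elt-1 (94.6), unc-120 (91.3), hlh-1 (67.5), nhr-25 (67.4), elt-7 (26.4), elt-2 (20.5), end-1 (18.2) and end-3 (2.41). The gene pha-4 was above lin-26 in 5 of 5 libraries, although their ranges over the libraries touched. The trio lin-26, elt-1 and unc-120 could not be ordered, since lin-26 exceeded elt-1 in 3 of 5 libraries and elt-1 exceeded unc-120 in 2 of 5. A clear step followed, with all libraries of unc-120 above all of hlh-1. The pair hlh-1 and nhr-25 had overlapping ranges, and another clear step separated them from the endoderm genes. Among these elt-7 was above elt-2 in 4 of 5 libraries and elt-2 above end-1 in 3 of 5, so the levels of the 3 genes did not differ beyond their spread. The END-1 partner end-3 was below all the others in every library.

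In larvae lin-26 and pha-4 led. In heterozygotes the medians were 40.96 FPKM for lin-26, 27.3 for pha-4, 25.4 for unc-120, 18.8 for elt-7, 18.2 for nhr-25, 16.6 for elt-1, 13.97 for elt-2 and 9.40 for hlh-1, with end-3 at 0.232 and end-1 listed at 0. All 3 libraries of lin-26 lay above all 3 of pha-4 there. In homozygotes pha-4 (28.5 FPKM) and lin-26 (28.3 FPKM) did not differ beyond their spread, and lin-26 was above pha-4 in 2 of 3 libraries. The genes unc-120, nhr-25 and elt-7, with medians from 17.2 to 18.4 FPKM, did not separate, and hlh-1 (10.3 FPKM) and elt-2 (8.39 FPKM) were the lowest of the 8 genes still present.

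**Figure D1:**
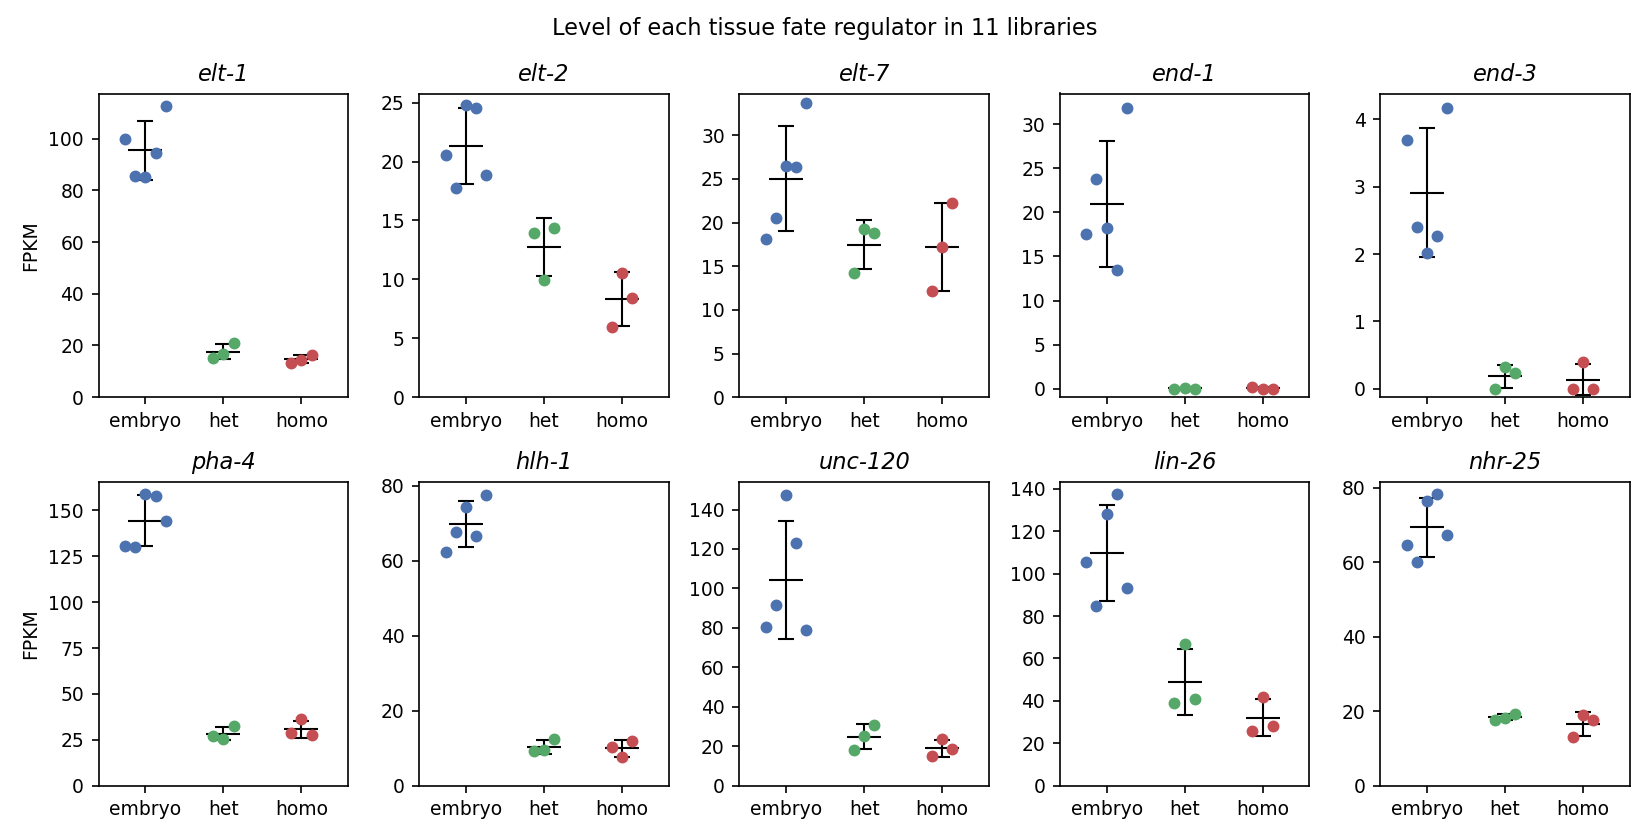
Each panel plots 1 gene, with FPKM on the y axis (linear) and the 3 groups on the x axis (5 embryo libraries, 3 kle-2 heterozygous and 3 kle-2 homozygous larval libraries). Points are libraries, drawn from left to right by replicate number, and black bars are the mean and SD. The axes of end-1 and end-3 start just below 0. In 9 panels every embryo point lies above every larval point, while in elt-7 the groups overlap, with embryos at 18.1 to 33.7 FPKM and larvae at 12.1 to 22.3 FPKM.

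The end genes were embryonic. The level of end-1 was 17.6, 23.8, 18.2, 13.4 and 31.9 FPKM in embryo replicates 1 to 5, 0.114 FPKM in heterozygous replicate 2, 0.224 FPKM in homozygous replicate 1 and 0 in the other 4 larval libraries. Embryo replicate 5 was the highest and replicate 4 the lowest, and no larval library came near them. The level of end-3 was 3.70, 2.41, 2.02, 2.26 and 4.17 FPKM in the embryo libraries, 0, 0.323 and 0.232 FPKM in heterozygotes and 0, 0.399 and 0 FPKM in homozygotes. Again embryo replicate 5 was the highest. The ratio of end-1 to end-3 within an embryo library was 7.43 ± 2.11 (SD, n = 5), from 4.75 in replicate 1 to 9.86 in replicate 2.

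For 4 of the 10 genes the FPKM values were whole multiples of one step in all 11 libraries, within 0.005 of a whole number, and the step was taken as 1 read. These were end-1, end-3, elt-2 and unc-120. The step could still be more or less than 1 read by a fixed factor, since reads that map to several places can be shared out. By this count the end-1 levels rested on 91, 105, 134, 122 and 347 reads in the 5 embryo libraries and on 1 read in each of the larval libraries above 0. In the other 4 larval libraries a count of 0 allows up to 3 reads, which is 0.389 to 0.490 FPKM. Summed over the libraries and set against depth, 799 embryo reads and 2 larval reads gave a rate 440-fold higher in embryos (exact 95% interval 121 to 3637). For end-3, 156 embryo reads and 10 larval reads gave a 17.2-fold higher rate (exact 95% interval 9.09 to 36.5). These intervals cover counting error only, not the spread between libraries or the change of strain and stage.

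The intestinal GATA genes were present at both stages. The level of elt-2 was 20.5, 17.8, 24.8, 24.6 and 18.9 FPKM in embryos, 13.97, 9.92 and 14.4 FPKM in heterozygotes and 5.99, 10.6 and 8.39 FPKM in homozygotes. All embryo libraries were above all larval ones, and the larval genotypes overlapped through replicate 2. These levels rested on 232 to 660 reads in embryos and on 79 to 268 reads in larvae, and the lowest, homozygous replicate 1, had a Poisson 95% interval of 4.74 to 7.47 FPKM, which does not reach the interval of any other library except homozygous replicate 3 (7.24 to 9.67 FPKM). The level of elt-7 was 18.1, 20.5, 26.5, 26.4 and 33.7 FPKM in embryos, 14.2, 19.3 and 18.8 FPKM in heterozygotes and 12.1, 17.2 and 22.3 FPKM in homozygotes. It was the only one of the 10 genes whose embryo and larval ranges overlapped. Within a library the ratio of elt-7 to elt-2 was 1.19 ± 0.346 in embryos (SD, n = 5), 1.42 ± 0.475 in heterozygotes and 2.101 ± 0.516 in homozygotes (SD, n = 3 each), and the 3 groups overlapped.

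**Figure D2:**
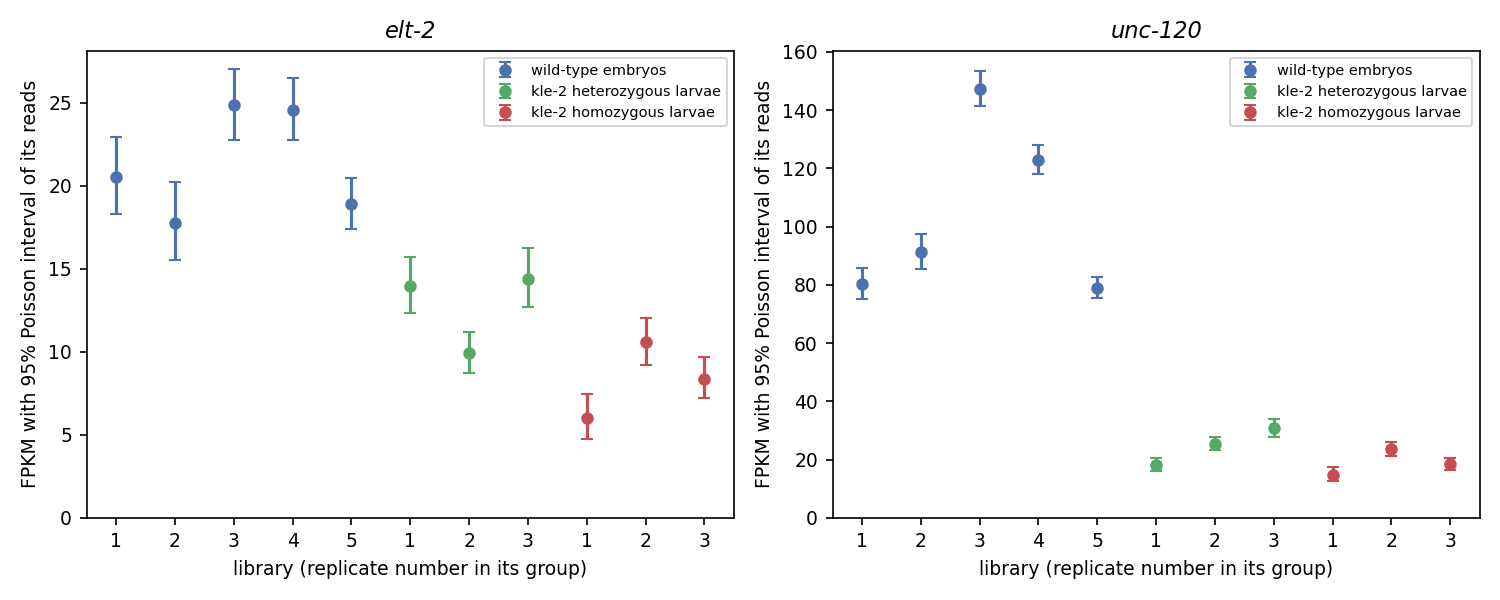
Level of elt-2 (left) and unc-120 (right) in each of the 11 libraries, in FPKM (y axis, linear, from 0), with the replicate number of the library in its group on the x axis. Bars are exact Poisson 95% intervals of the reads behind each value, taken from the FPKM steps, and cover counting error only. The intervals of some libraries of a group overlap and those of others do not, as in unc-120, where embryo replicates 3 (147 FPKM, 2357 reads) and 5 (79.1 FPKM, 1867 reads) lie apart.

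In the pharynx and muscle, hlh-1 was the most even of the genes between embryo libraries, and pha-4 came next. The level of pha-4 was 131, 130.2, 159, 158 and 144 FPKM in embryos, 27.3, 25.6 and 32.3 FPKM in heterozygotes and 28.5, 36.1 and 27.4 FPKM in homozygotes. Its coefficient of variation over the embryo libraries was 9.63%, where the median gene of 12833 with a mean embryo FPKM of at least 1 had 28.8%. The level of hlh-1 was 62.5, 67.5, 74.4, 66.5 and 77.5 FPKM in embryos, with a coefficient of variation of 8.79%. In larvae hlh-1 was at 9.23, 9.40 and 12.5 FPKM in heterozygotes and at 10.3, 7.59 and 11.9 FPKM in homozygotes, and the embryo mean was 6.71 times the heterozygous mean. Its partner unc-120 varied more, with 80.4, 91.3, 147, 123 and 79.1 FPKM in embryos, 18.3, 25.4 and 30.8 FPKM in heterozygotes and 14.9, 23.5 and 18.4 FPKM in homozygotes. The ratio of unc-120 to hlh-1 ranged from 1.02 in embryo replicate 5 to 1.98 in embryo replicate 3, and was 2.38 ± 0.367 in heterozygotes and 2.03 ± 0.927 in homozygotes (SD, n = 3 each).

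Of the epidermal genes, elt-1 lay far higher in embryos than in larvae and lin-26 did so least. The level of elt-1 was 99.985, 85.4, 85.1, 94.6 and 113 FPKM in embryos, 15.3, 16.6 and 20.9 FPKM in heterozygotes and 13.3, 14.3 and 16.3 FPKM in homozygotes. The embryo mean was 5.44 times the heterozygous mean. The level of lin-26 was 105, 84.8, 128, 138 and 93.0 FPKM in embryos, 39.1, 66.9 and 40.96 FPKM in heterozygotes and 25.7, 41.9 and 28.3 FPKM in homozygotes. Replicate 2 was the highest in both larval genotypes, and its heterozygous library came within 1.27-fold of the lowest embryo library. Within a library lin-26 and elt-1 were nearly level in embryos, with a ratio of 1.17 ± 0.299 (SD, n = 5), whereas lin-26 stood above elt-1 in every larval library, with ratios from 1.74 to 4.04. The level of nhr-25 was 64.6, 59.9, 76.4, 78.2 and 67.4 FPKM in embryos, 17.7, 18.2 and 19.3 FPKM in heterozygotes and 12.99, 19.03 and 17.6 FPKM in homozygotes. Its heterozygous libraries were the closest together of any of the genes, with a coefficient of variation of 4.43%.

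Embryos and larvae differ in stage, strain and table at once, so no test was made between them. All 5 embryo libraries lay above all 6 larval libraries for 9 of the 10 genes, and for none did they lie below. Of the 9, end-1 and end-3 averaged 1 FPKM or more only through the embryo libraries, so they could hardly have lain elsewhere. Among all 13600 genes averaging 1 FPKM or more over the 11 libraries, 37.0% lay wholly above in embryos and 19.9% wholly below. The median gene was itself higher in embryos by 0.52 on the log2 scale (11486 genes averaging 1 FPKM or more at both stages), and scaling every library to the same 75th percentile moved this median by -0.57 to -0.06. After that scaling 7 of the 10 genes were wholly above, against 24.6% of all genes. Besides elt-7, elt-2 and lin-26 then overlapped, elt-2 with a lowest embryo value of 14.8 and a highest larval value of 19.1 on the scaled FPKM, and lin-26 with 70.9 and 83.7. Percentile ranks within the library left the same 7 genes wholly above. By rank, hlh-1 lay between the 87.1 and 89.3 percentiles in embryos and between 59.6 and 68.4 in larvae, and its muscle partner unc-120 between 89.6 and 94.9 and between 73.0 and 81.4.

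Other regulators of the same tissues were read from lists taken up with earlier results of these data known, against the 37.0% of all genes that lay wholly above in embryos. This share was 24.6% after scaling to the same 75th percentile, and the lists were not recounted on that scale. Besides hlh-1 and unc-120, all 6 body muscle regulators above the minimum lay wholly above. Of these hnd-1, ceh-51, tbx-8 and tbx-9 passed the minimum only through the embryo libraries, so they could hardly have lain elsewhere. Among them hnd-1, a bHLH gene of mesodermal precursors chosen here after its values were seen, was at 32.6 to 45.9 FPKM in embryos and at 0 in 5 of 6 larval libraries (0.0831 FPKM in the other, heterozygous replicate 2). The homeobox gene pal-1, a maternal regulator of posterior fates, was at 61.7 to 84.97 FPKM in embryos and 1.87 to 5.96 FPKM in larvae. Besides the 10 genes, 7 of 7 pharynx regulators, 7 of 10 epidermal regulators, 3 of 4 GATA factor genes and 1 of 2 upstream endoderm genes above the minimum were also wholly above. The 3 GATA genes, elt-3, egl-18 and elt-6, are also counted among the 7 epidermal regulators. The nuclear receptor list also holds 2 partner genes of other families, the Hox gene nob-1 and the zinc finger gene sem-4. Of its 5 genes without nhr-25, nob-1 was wholly above and the receptor gene nhr-85 wholly below. The GATA gene elt-4 overlapped, at 0.747 to 4.15 FPKM in embryos and 0.837 to 4.02 FPKM in larvae, and so did skn-1, at 158 to 289 FPKM in embryos and 106 to 176 FPKM in larvae. Among the epidermal regulators lin-29, chosen here after its values were seen, was wholly below, with 0.775 to 1.11 FPKM in embryos and 4.12 to 11.04 FPKM in larvae. It is known for the switch from larval to adult epidermis. Its embryo mean was 0.983 FPKM, so it passed the minimum only through the larval libraries.

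The marker genes differed by tissue, read against the 19.9% of all genes that lay wholly below in embryos and the 37.0% that lay wholly above. These shares were 29.9% and 24.6% after scaling to the same 75th percentile, and the lists were not recounted on that scale. Of 12 intestinal marker genes 8 lay wholly below in embryos and none above, led by asp-1, an aspartic protease gene, at 146 to 1096 FPKM in embryos and 3410.5 to 6268 FPKM in larvae. The cysteine protease gene cpr-1 was at 0.683 to 8.90 FPKM in embryos and at 352 to 971 FPKM in larvae. Of 11 body wall muscle genes 8 were wholly below and none above. Of 8 neuronal genes 2 were wholly below and none above, and of 8 germ line genes 1 was wholly below and 4 above. Of 7 pharyngeal genes 1 was wholly below. This was marg-1, named after its values were seen, which with an embryo mean of 0.719 FPKM passed the minimum only through the larval libraries. Of 11 epidermal and cuticle genes above the minimum 2 were wholly below, and both shares were near that of all genes wholly below. The junction gene ajm-1, of the last list and named after its values were seen, was wholly above, at 279.7 to 371 FPKM in embryos and 102 to 138 FPKM in larvae.

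The embryo libraries differed among themselves. Embryo replicate 5 had the highest level of 5 of the 10 regulators (elt-1, elt-7, end-1, end-3 and hlh-1), where 28.6% of all genes were highest there. The same library was the lowest of the 5 in the summed level of the marker lists of intestine (602 FPKM, the others 1271 to 2430), pharynx (82.1 FPKM, the others 324 to 780), body wall muscle (3184 FPKM, the others 5522 to 7810), epidermis and cuticle (4268 FPKM, the others 7966 to 10209) and neurons (384 FPKM, the others 490 to 752). Its germ line sum was the second highest (448 FPKM, the others 223 to 462). It was lowest in 41.7% of all genes. Replicates 3 and 4 were the highest pair for the other 5 regulators, elt-2, pha-4, unc-120, lin-26 and nhr-25, and for 25.8% of all genes. Replicate 4 had the lowest end-1 and the highest sums of intestine, pharynx, body wall muscle and neuronal markers. Such sums weigh the most abundant genes most. In replicate 5 the collagen gene sqt-3 alone held 3134.5 of the 4268 FPKM of the epidermal and cuticle list. The part of these marker differences in the levels of the 10 genes was not tested.

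**Figure D3:**
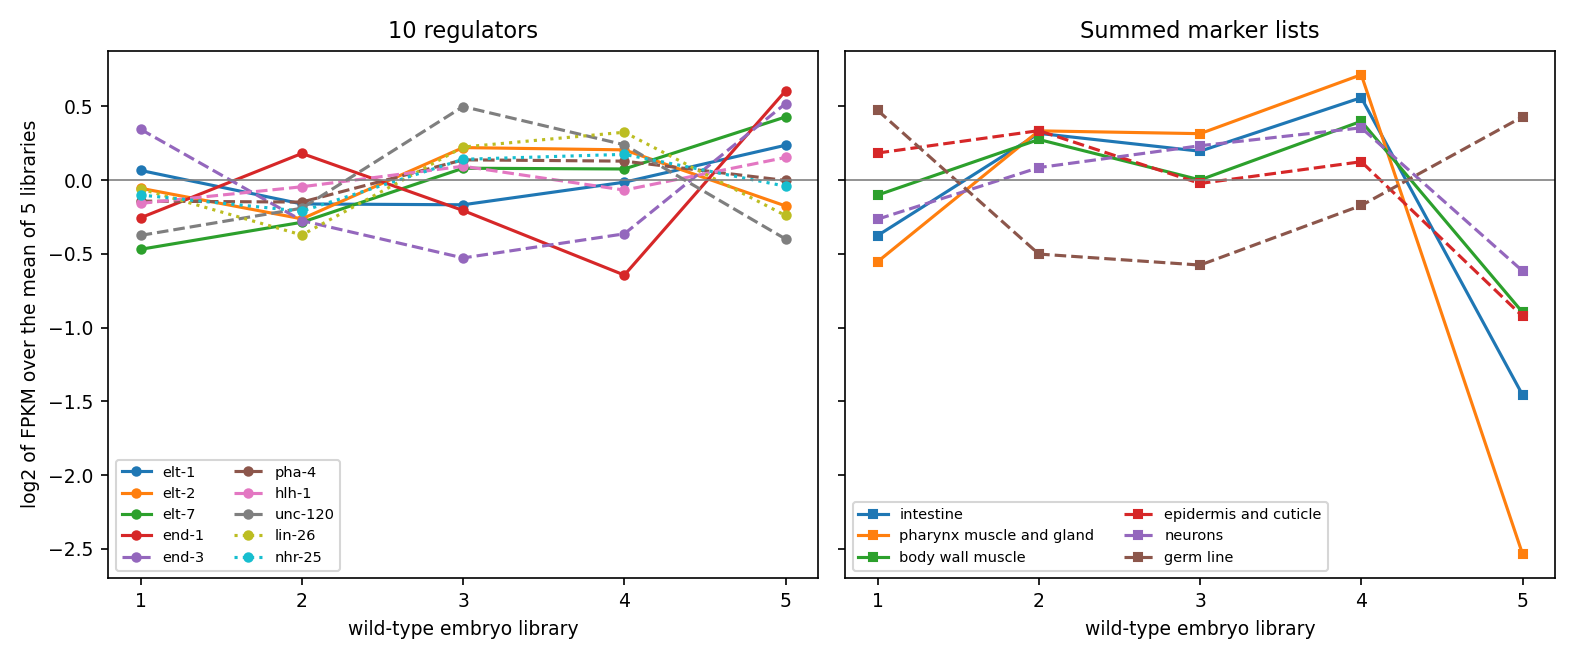
Level of each regulator (left) and summed FPKM of each marker list (right) in the 5 wild-type embryo libraries (x axis), as log2 of the value over the mean of the 5 libraries (y axis, shared). Lines join the values of 1 gene or list and do not stand for an order of the libraries. In replicate 5 end-1, end-3 and elt-7 are at their highest and the intestinal, pharyngeal, muscle, epidermal and neuronal sums at their lowest.

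The larval comparison asked how these genes stood in animals without zygotic kle-2. None of the 8 regulators that passed the minimum of a mean FPKM of 1 was called between homozygous and heterozygous larvae (limma on log2(FPKM + 1), Benjamini-Hochberg adjusted p over 12837 genes, threshold 0.05), and 0 of 8 had an unadjusted p under 0.05. Among all genes 0.117% were called (15 genes, and 1079 at an unadjusted p under 0.05). The fold changes of 7 of the 8 genes were negative, with a median of -0.20 on the log2 scale where the median of all tested genes was 0.00 (-0.0042), and 50.7% of all tested genes were negative. The genes with the lowest values were lin-26, at -0.59 ± 0.28 (SE, 95% interval -1.22 to 0.05, adjusted p = 0.65), and elt-2, at -0.58 ± 0.26 (SE, 95% interval -1.17 to 0.02, adjusted p = 0.62). For unc-120 the difference was -0.37 ± 0.26 and for elt-1 -0.24 ± 0.20 (SE). The values of nhr-25 (-0.16), hlh-1 (-0.07), elt-7 (-0.05) and pha-4 (0.10) had SEs from 0.19 to 0.26. The 95% interval was -0.34 to 0.55 for pha-4 and -0.64 to 0.55 for elt-7, so equal levels were not shown. The end genes were under the minimum, and their differences of 0.05 for end-1 and -0.07 for end-3 rested on at most 10 reads in all larvae (exact permutation test, two-sided, p = 1 for each, where 3 against 3 cannot go below 0.1).

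The labels state no pairing of the larval libraries. In these same data, libraries of one replicate number tended to deviate alike from their group means. The fit with the replicate number as a block was therefore made as well. With this replicate block lin-26 was called lower in homozygotes, and it was the only one of the 8 genes that was called (limma, adjusted p = 0.018, SE 0.081, 95% interval -0.80 to -0.38). The share of all tested genes called lower in that fit was 4.39%, and 4.04% were called higher. The homozygous library was below the heterozygous one in each pair for lin-26, with differences of -0.59, -0.66 and -0.52 on the log2 scale in replicates 1 to 3. Without both libraries of replicate 1 the adjusted p of lin-26 was 0.12 and without those of replicate 2 it was 0.080, with log2 fold changes of -0.59 and -0.55, whereas without replicate 3 the call was kept (adjusted p = 0.040). With 2 pairs left the fit called 0, 364 and 951 genes in all, against 1082 with 3 pairs. The genes elt-1 and unc-120 were also lower in 3 of 3 pairs, but their adjusted p values in the blocked fit were 0.19 and 0.18. For elt-2 the pairs went apart, at -1.10, 0.08 and -0.71 in replicates 1 to 3, and the blocked fit gave an adjusted p of 0.21. The pairs of elt-7, pha-4, hlh-1 and nhr-25 also differed in sign.

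**Figure D4:**
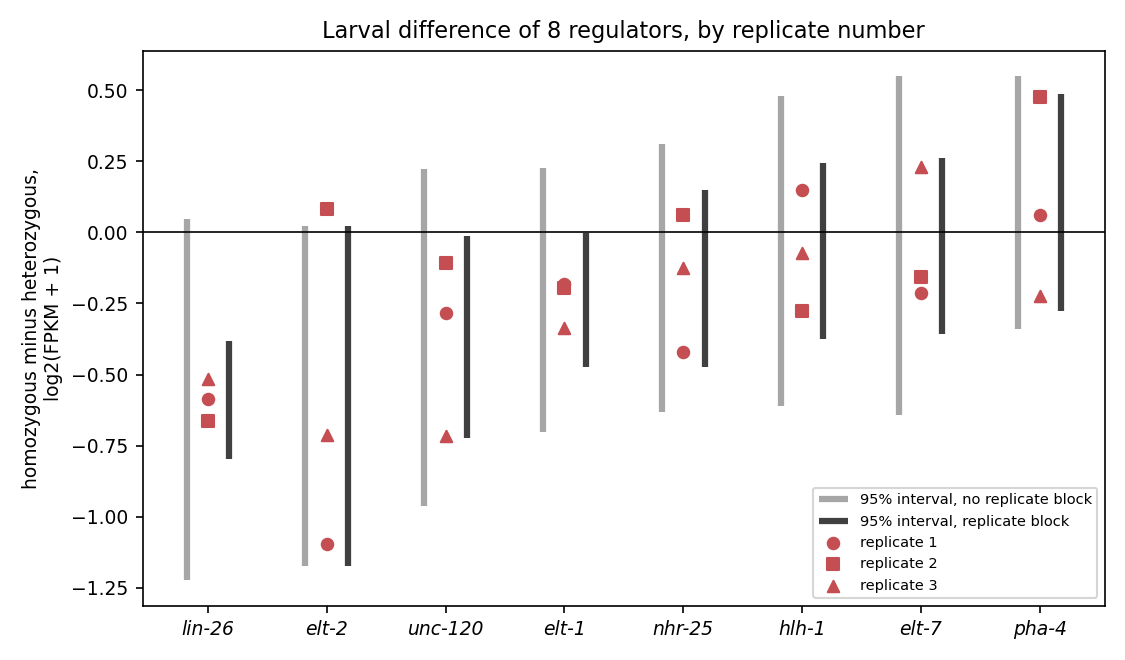
Homozygous minus heterozygous larvae for the 8 regulators in the fit, in log2(FPKM + 1) on the y axis. Red symbols are the 3 pairs of libraries with the same replicate number, the light bar is the 95% interval of the limma fit without and the dark bar that with the replicate block. The 3 lin-26 symbols lie between -0.66 and -0.52, and its dark bar ends at -0.38, below 0.

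The gene model of lin-26 overlaps that of lir-1, its neighbour of the same family, in the RefSeq annotation, and reads in the shared stretch cannot be told apart here. The level of lir-1 was 28.7, 41.6 and 42.4 FPKM in heterozygotes and 24.0, 28.5 and 34.1 FPKM in homozygotes. It was lower in homozygotes in 3 of 3 pairs, at -0.36 ± 0.23 (SE), with an adjusted p of 0.80 in limma and of 0.085 with the replicate block. The models of hlh-1 (with B0304.4) and end-3 (with srh-308) also touch another coding gene there.

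Of the 13 epidermal regulators, a list that holds elt-1, lin-26 and nhr-25, none was called without the block (limma) and 3 were called lower with it. Among all tested genes 4.39% were called lower with the block, and 50.7% had negative fold changes. All 13 had negative fold changes, with a median of -0.36, but in nhr-25, ceh-43 and ceh-16 the pairs differed in sign. The 3 genes called lower with the block were lin-26, grh-1 and blmp-1. The Grainyhead factor gene grh-1 was at -0.98 ± 0.37 (SE, limma adjusted p = 0.49, and 0.011 with the block). The Blimp factor gene blmp-1, chosen after its values were seen, was at -0.67 ± 0.29 (SE, limma adjusted p = 0.59, and 0.016 with the block). The level of grh-1 was 40.6, 60.5 and 24.4 FPKM in heterozygotes and 18.3, 28.5 and 13.8 FPKM in homozygotes. The library of replicate 3 was the lowest in each genotype. In the other lists peb-1 of the pharynx regulators (-0.71 ± 0.39, adjusted p = 0.74, and 0.015 with the block) and nhr-41 of the nuclear receptor list (-0.84 ± 0.36, adjusted p = 0.59, and 0.034 with the block) were called lower with the block alone. None of the GATA, endoderm cascade or body muscle regulators was called in either fit. All 7 GATA genes in the fit had negative values, from -0.71 for elt-4 to -0.05 for elt-7. Of these, elt-1, elt-3, egl-18 and elt-6 are also among the 13 epidermal regulators, so the lists are not separate. The endoderm genes pop-1, the TCF factor gene, and skn-1 had positive ones, 0.33 ± 0.17 and 0.20 ± 0.21 (SE), and pal-1 was at 0.19 ± 0.35 with pairs of both signs. The first 2 were higher in 3 of 3 pairs, with adjusted p values of 0.72 and 0.97 in limma and of 0.093 and 0.16 with the replicate block.

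The marker lists of the tissues are given beside these regulators. No marker gene was called without the block (lowest adjusted p = 0.10, for cpr-1, limma). With the replicate block 7 of 11 epidermal and cuticle genes in the fit were called lower and 1 (vab-10) higher, with a median over the 11 of -0.76. In that fit 4.39% of all tested genes were called lower and 4.04% higher. The moulting gene mlt-10 was at 193, 255 and 34.8 FPKM in heterozygotes and at 49.2, 91.8 and 14.6 FPKM in homozygotes, and the collagen gene sqt-3 at 2826, 3933 and 559 FPKM and at 934, 1841 and 224 FPKM. Replicate 2 was the highest and replicate 3 the lowest in each genotype for both genes. These genes are made in bursts within each larval stage. In lin-26 replicate 2 was likewise the highest of each genotype, but replicate 3 lay slightly above replicate 1. The part of these differences in the values of lin-26, grh-1 and blmp-1 was not tested. The summed level of the epidermal and cuticle list was 8938, 9026 and 5962 FPKM in heterozygotes and 6778, 7505 and 5076 FPKM in homozygotes. Most of the sum came from 2 collagen genes, in heterozygous replicate 1 col-10 (4435 FPKM) and sqt-3 (2826 FPKM). Their log2 fold changes had opposite signs (0.21 and -1.34).

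Of 11 body wall muscle genes none was called without the block (limma) and 7 were called higher with it. Among all tested genes 4.04% were called higher with the block, 4.39% were called lower, and 50.7% had negative fold changes. All 7 calls were lost in the blocked fit without the trend, and 0, 0 and 3 of them stayed without both libraries of replicates 1, 2 and 3. All 11 had positive fold changes, with a median of 0.38, the highest in myo-3, a body wall myosin gene, at 0.55 ± 0.16 (SE, adjusted p = 0.33, and 0.044 with the block, which became 0.083 to 0.12 with any pair left out). The summed list was at 15405, 14000 and 12984 FPKM in heterozygotes and at 20076, 19795 and 17226 FPKM in homozygotes, so the genotypes did not overlap. For hlh-1 and unc-120 they did, and the difference between the list and its regulators was not tested. Of 12 intestinal genes 3 were called higher with the block, cpr-1, asp-1 and act-5 (the latter named after its values were seen), the first at 352, 458 and 387 FPKM in heterozygotes and 718, 971 and 778 FPKM in homozygotes (1.04 ± 0.18, SE, adjusted p = 0.0076 with the block). None of the 12 was called lower, and 7 had positive and 5 negative fold changes, with a median of 0.22. The peptide transporter gene pept-1 had the most negative value, -0.25 ± 0.38 (SE). The pharyngeal gland genes phat-1 and phat-2 (phat-2 named after its values were seen) were called lower with the block, phat-1 at -1.38 ± 0.50 (SE, limma adjusted p = 0.011 with the block). No other gene of the pharyngeal marker list was called, and 4 of its 7 genes had positive and 3 negative fold changes, with a median of 0.18. Among the pharynx regulators peb-1 was called lower with the block, while pha-4 was at 0.10. Of 8 neuronal genes unc-64 was called higher with the block, though 6 of the 8 had negative fold changes and the median was -0.06. Of 8 germ line genes, all with positive values, glh-1 and gld-1 were called higher with it. None of the 28 list genes called with the block stayed called without both libraries of replicate 1. Of these 28, 42.9% lie on I or III, the chromosomes of the balancer, as do 35.2% of the 91 list genes in the fit. Among the 3 epidermal regulators called with the block, grh-1 and blmp-1 are genes of chromosome I, a balancer chromosome, and lin-26 is a gene of chromosome II. The heterozygotes alone carried the balancer, so it and the loss of kle-2 cannot be told apart.

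The remaining genes named by the rule for the lists were not called in either fit, act-4 apart. The GATA genes egl-18 and elt-3, both epidermal, were at 173 to 330 and 88.0 to 147 FPKM in embryos, and at -0.23 ± 0.18 and -0.46 ± 0.17 (SE) between the larval genotypes. The zinc finger gene sem-4 was at -0.33 ± 0.20 and the Hox gene nob-1 at 0.12 ± 0.25 (SE). The actin gene act-4 was at 0.52 ± 0.21 (SE, adjusted p = 0.53 in limma, and 0.018 with the replicate block). The collagen gene col-10 (0.21), the pharyngeal genes myo-1 (0.44) and tni-4 (0.18), the neuronal genes rab-3 (-0.26), snb-1 (0.04) and sbt-1 (-0.01) and the germ line gene mex-5 (0.60) had SEs from 0.14 to 0.27.

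**Figure D5:**
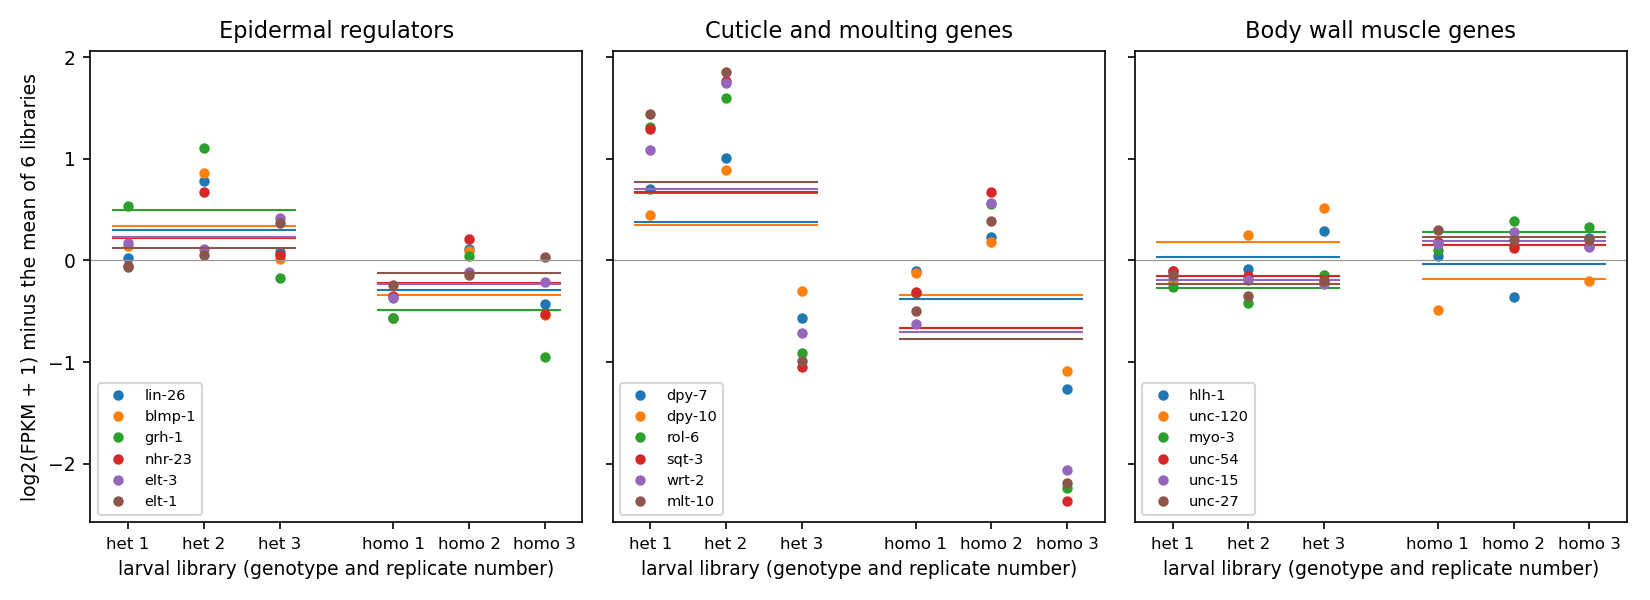
Level of 6 epidermal regulators, 6 cuticle and moulting genes, and hlh-1 and unc-120 with 4 body wall muscle genes, in the 6 larval libraries (x axis), as log2(FPKM + 1) minus the mean of the 6 libraries of that gene (y axis, shared). Points are libraries and colored lines the mean of the 3 libraries of a genotype, and the genes other than the 10 regulators were chosen for display after their values were seen. The 6 cuticle and moulting genes shown are lowest in replicate 3 of each genotype, down to 14.6 FPKM for mlt-10. Other genes of that marker list go otherwise, such as ajm-1 and vab-10, not shown, which were highest in replicate 3 of each genotype. The points of lin-26 follow a smaller version of the difference between genotypes, with means of 49.0 and 32.0 FPKM.

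The 5 genes most like elt-2 over the 6 larval libraries, by Pearson's correlation of log2(FPKM + 1) among 9493 other genes that averaged 5 FPKM or more, were C54G4.5 (r = 0.98), C09D4.2 (0.97), C08E8.4 (0.97), F28E10.1 (0.96) and F11C1.7 (0.94), which carry no name in the annotation used. The first, C54G4.5, was at 13.1, 9.72 and 14.2 FPKM in heterozygotes and 3.98, 10.7 and 8.07 FPKM in homozygotes. Among the other regulators nhr-25 was the most like elt-2 (r = 0.81, place 146), and elt-7, which acts with it in the intestine, had an r of 0.27 (place 3743). These values describe 6 libraries of 2 genotypes that share library effects, and the genes were not tested for a relation.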

How the data were processed

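RNA-seq values were taken from 2 deposited tables of FPKM per gene, 1 of wild-type embryos and 1 of kle-2 larvae, which were normalized separately. The authors prepared stranded poly(A) libraries, aligned single-end reads to WS220 with tophat and computed the FPKM with Cufflinks 2.0.2, as the processing notes and methods state. The ChIP-seq peak lists were not analysed here. After 2 repeated rows were left out, 20376 genes remained, of which 19878 matched a RefSeq name. Groups and replicate numbers came from the sample labels. The larval genotypes were compared on the log2(FPKM + 1) scale with the limma package (version 3.58.1, R 4.3.3) and an intensity trend, over the 12837 genes that averaged 1 FPKM or more, and p-values were adjusted by Benjamini-Hochberg with a threshold of 0.05. Fold changes are on the log2(FPKM + 1) scale, which understates low genes. Simulated data with known changes served to test the fit. The study itself compared the genotypes with DESeq2 on read counts that were not used here. The pairing by replicate number is not stated in the labels and was inferred from the same data. Deviations from the group means correlated at 0.44, 0.55 and 0.62 between libraries of the same number and at -0.48 to -0.02 otherwise. Such deviations cancel out within a group, so the negative values largely follow from the positive ones and are not separate evidence. Reads behind FPKM were found from ratios of genes below 0.5 FPKM, with exact 95% intervals, using scipy 1.17.1. The 10 genes, the 12 lists and the tests were chosen with earlier results of these data known. Besides the 10 genes, the text names from each list the genes called between genotypes, or else those with the largest positive and negative fold change, and those with the highest median in embryos and in heterozygotes. Besides kle-2, the genes that overlap one of the 10 and the genes most like elt-2, every other gene named was chosen after its values were seen. Alternatives were another pseudocount (0.1), no minimum or a minimum of 5, the fit without the trend, quantile normalization, centring on the median, the replicate number as a block and leaving out each library in turn. For the embryo comparison they were scaling to the 75th percentile, ranks, a minimum of 5 and leaving out each library. Alternatives to the blocked fit were added after the data were seen. No sequences or WS220 gene positions were used here.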

Additional observations from a re-analysis of the deposited data

How the results depend on the processing

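Without the replicate block 15 genes were called. This became 6 with no minimum, 36 with quantile normalization, 7 with no trend and 1082 with the replicate block, and between 0 (limma, leaving out homozygous replicate 1, where 1004 genes had an unadjusted p under 0.05, or heterozygous replicate 2, where 781 did) and 28 (without heterozygous replicate 3) with 1 library left out. None of the 8 regulators was called in any of these alternatives but lin-26 with the block. Over the 38 named genes in the fit, 459 of 492 alternative values kept direction and side of the threshold, 15 were called with the block alone and 18 changed sign. With scaling, sbt-1 moved to 0.0073 (median centring) and snb-1 to -0.00079 (quantile normalization). The other sign changes came with 1 library left out, where elt-7 ranged from -0.24 to 0.17, pha-4 from -0.014 to 0.20, hlh-1 from -0.19 to 0.10, end-1 from -0.052 to 0.10 and end-3 from -0.24 to 0.011. This range was -0.0073 to 0.34 for nob-1, -0.16 to 0.48 for pal-1, -0.63 to 0.038 for pept-1, -0.056 to 0.026 for sbt-1, -0.018 to 0.14 for snb-1 and -0.053 to 0.43 for tni-4. In the blocked fit 1082 calls became 0 (2337 at an unadjusted p under 0.05), 364 and 951 without both libraries of replicate 1, 2 and 3, and lin-26 lost its call at -0.59 and -0.55 without replicates 1 and 2. Its call held under quantile normalization, median centring, a pseudocount of 0.1, a minimum of 5 and no trend. Of 28 list genes called with the block, 17 stayed called with no trend, and 0, 11 and 22 without replicates 1, 2 and 3, each in the same direction. Levels of 9 genes lay wholly above in embryos as deposited, 7 after scaling or ranking and 8 with a minimum of 5, while leaving out any library left 9. The larval values of end-1 and end-3 rest on 0 to 4 reads a library, which limits their precision. Leaving out 1 library leaves 2 in its group, and leaving out a pair leaves 2 of 3 pairs.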
